A study of Homo sapiens with 26 samples.

Results

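Translation efficiency, the density of ribosome footprints on a coding sequence relative to the amount of its mRNA, was calculated gene by gene in HEK293T cells, a human embryonic kidney line. A gene was a member if it had at least 64 footprints or reads in each of 4 total input libraries, which are made from whole lysate before any pulldown. Of 57769 genes listed under 1 identifier in both data types, 6714 met this minimum, and 6712 of them are protein-coding genes with a symbol. Footprints came from the 2 mito total inputs of ribosome profiling, and mRNA from the 2 wild-type total inputs of RNA-seq, so 4 of the 26 libraries of the series carry the result. Efficiency is given on a log2 scale as coding footprint RPKM minus mRNA RPKM (reads scaled to kilobases and library size), with 0 at the median of all genes tested. Before this centring the median gene had a coding RPKM 1.27 log2 units above its mRNA RPKM.

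Both pairs of inputs came from HEK293T cells in which the endogenous RPL29 gene was fused to the Avi tag, and in which LOV-BirA, a biotin ligase switched on by blue light, is held at the mitochondrial outer membrane by the transmembrane domain of OMP25. The ligase was delivered by lentivirus under the EF1α promoter. The RNA-seq cells also carried a negative control gRNA, which the labels call wild type. All of these cells received cycloheximide (CHX), biotin and blue light before lysis, so no untreated cells enter the ratio. Footprints were made with micrococcal nuclease and kept at 27 to 36 nt, whereas RNA-seq libraries were made from rRNA-depleted RNA per the methods and polyA RNA per the labels. Footprints and mRNA were prepared in different experiments, so an effect of the assay and one of the experiment cannot be told apart. The study describes the mito ribosome profiling as biological replicates. For RNA-seq the labels number replicates without naming separate cultures, so the spread between those libraries, which enters the p-values, may be technical.

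The mito inputs held 5091524 and 5455806 coding footprints, and the wild-type inputs 38347615 and 45939432 reads. VIM, INA, NEFL and NEFM, intermediate filament genes that HEK293 cells are known to express, were present in both data types, as was the epithelial keratin gene KRT18. ALB, HBB, PECAM1, PTPRC and CD3E, which mark liver, red blood, endothelial and white blood cells, had at most 1 footprint and 7 reads in any of the 4 libraries. In these bulk lysates, more RNA in each cell and RNA in more of the cells cannot be told apart.

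Ribosomes are recruited near the 5′ end of an mRNA, scan its 5′ untranslated region (5′UTR) and usually start at the first suitable AUG. Upstream AUGs, structured leaders and bound repressors are known to lower initiation on the main coding sequence. Genes for ribosomal proteins and elongation factors begin with a terminal oligopyrimidine (TOP) tract, through which growth signals regulate their translation. Ferritin mRNAs carry an iron-responsive element in the 5′UTR, which iron regulatory proteins bind when iron is scarce.

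The starts and leaders that the gene classes turn on are shown here from the canonical transcripts of GENCODE 44 on GRCh38. For TOP genes, the first 24 bases of the canonical transcript are given, with the tract in capitals where the first base is C and at least 5 pyrimidines run unbroken. RPL39, RPS29 and EEF1A1 had high efficiency, RPL11 low efficiency, and RPS28, the second highest gene of all, has no tract under this definition.
RPL39, chrX:119791607-119791630, minus strand: CCCTCCTCTTCCTTTCTCCgccat
RPS29, chr14:49586357-49586380, minus strand: CTTCCTTTTacctcgttgcactgc
EEF1A1, chr6:73521009-73521032, minus strand: CTTTTTCgcaacgggtttgccgcc
RPL11, chr1:23691806-23691829, plus strand: CTCTTCCTgctctccatcatggcg
RPS28, chr19:8321496-8321519, plus strand: actcctctccgccagaccgccgcc

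For genes with low efficiency, the bases around an upstream AUG in the 5′UTR are given with the ATG in capitals, and for FTL the iron-responsive element with the CAGTG of its loop in capitals. The open reading frames that start at these ATGs run for 36 codons in UCP2, 51 in PPP1R15B, 70 in MIEF1, 14 in MDM2, 30 in SMG5 and 4 in SEPHS2, and each of these ends before the main start codon.
UCP2, first of 3 upstream AUGs, chr11:73981599-73981628, minus strand: catagtATGaccattaggtgtttcgtctcc
PPP1R15B, second of 2, chr1:204411619-204411648, minus strand: gccaggATGgaagtcgcatcagtcgccgcc
MIEF1, number 3 of 5, chr22:39504225-39504254, plus strand: tcccccATGgccccgtggagccgagaggcg
MDM2, first of 2, chr12:68808241-68808270, plus strand: ggaaagATGgagcaagaagccgagcccgag
SMG5, the only one, chr1:156282778-156282807, minus strand: acagcgATGgcggccgagcagggccggtgg
SEPHS2, the only one, chr16:30445838-30445867, minus strand: ttgtgcATGccgtgggtctgacggcttgag
FTL, iron-responsive element, chr19:48965335-48965364, plus strand: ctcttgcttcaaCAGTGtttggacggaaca

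Efficiency varied widely among genes. The SD over the 6714 genes was 1.32 on the log2 scale, and the 5th and 95th percentiles, -2.17 and 2.18, lay 20.4-fold apart. Replicates differed far less, with an SD over genes of 0.37 between the footprint libraries and 0.28 between the RNA-seq libraries. With edgeR's quasi-likelihood test and Benjamini-Hochberg adjustment over all genes, 2283 genes (34.0%) were called high and 2356 (35.1%) low at an adjusted p of 0.05. Of these, 1427 (21.3%) were at least 1 log2 unit above the median and 1490 (22.2%) at least 1 below it. For 5740 genes (85.5%) the sign was the same in all 4 pairings of a footprint with an RNA-seq library. The median SE was 0.19, falling from 0.23 among the 1498 genes with 64 to 127 footprints in their shallower library to 0.15 among the 965 with at least 1024.

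The calls were compared with those from 8 total inputs that share no library with these 4, namely ER and cytosol ribosome profiling against RNA-seq of AKAP1 null and LARP4 null cells, each null genotype being 1 monoclonal line. Of 2235 high genes tested in both, 2088 (93.4%) were called high there and 0 low. Of 2216 low genes, 2014 (90.9%) were called low and 0 high. The 2 estimates differed with an SD of 0.30 over 6425 genes, close to the spread between replicate libraries. These inputs share the cell line, the assays and the gene lengths with the first 4.

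Gene length enters the ratio on both sides. Footprints were counted only at coding positions to which reads align uniquely. These made up a median of 88.3% of the coding sequence of the canonical transcript, but less than 80% in 2785 genes (41.5%). In some genes they exceed that sequence, as in GNAS with 3810 positions against 1182. RNA reads were divided by the union of all exons, a median of 1.40 times the length of the canonical transcript and more than 2 times in 1532 genes. With the canonical transcript length instead, 2159 genes (32.2%) were called high and 2193 (32.7%) low. Of the high genes, 1726 of 2282 (75.6%) remained high and 81 became low, whereas 1861 of 2356 low genes (79.0%) remained low and 0 became high. Values on this second scale are called canonical below. Another scale, called all-exon, counts footprints over every exon including the UTRs, and it gave an SD of 1.08. Among the named genes, 14 lost their call on the all-exon scale and 18 changed sign with a call on either scale, and these values are printed beside each gene.

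**Figure D1:**
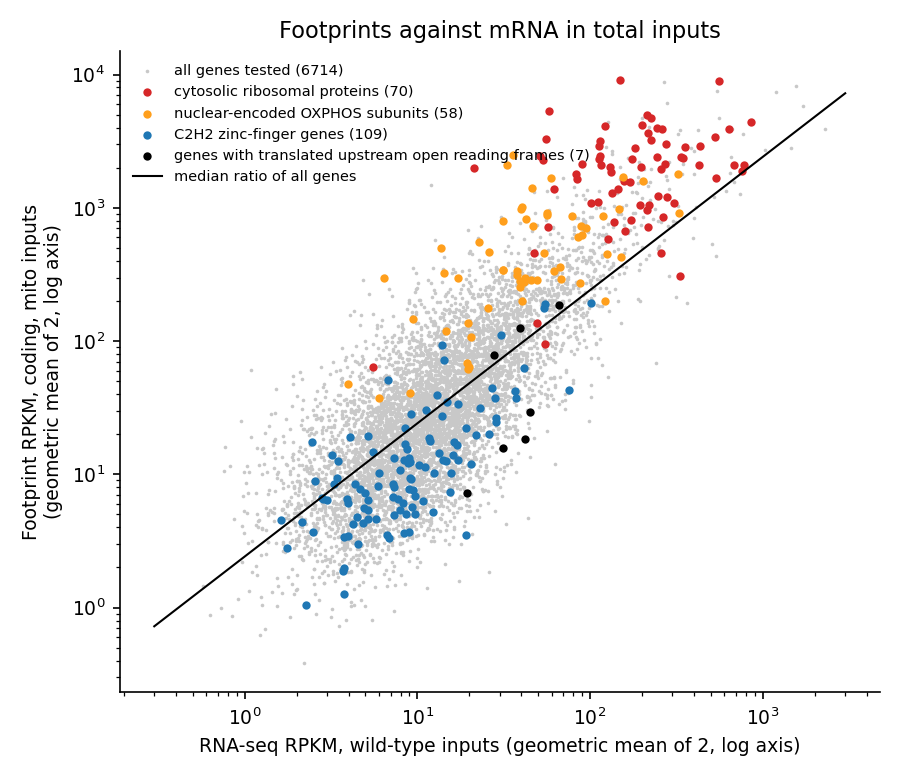
Coding footprint RPKM in the mito inputs (vertical log axis) against mRNA RPKM in the wild-type inputs (horizontal log axis), each point being 1 gene at the geometric mean of 2 libraries, and the line marking the median ratio. Ribosomal protein genes (70) and OXPHOS genes (58) lie mostly above the line and C2H2 zinc-finger genes (109) mostly below it.

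H3-3A, which encodes the replication-independent histone H3.3, had the highest efficiency. Its coding RPKM was 1729 and 1255.5 in the 2 footprint libraries and its mRNA RPKM 11.01 and 13.2, which gave a log2 efficiency of 5.66 ± 0.23 (SE). Only 126 of its 408 coding positions could be counted. RPS28, a small-subunit protein, reached 6618 and 4292 against 57.95 and 57.7, a log2 efficiency of 5.27 ± 0.25. ATP5F1E, a small subunit of ATP synthase, reached 2515 and 2468 against 41.7 and 31.01, or 4.81 ± 0.20. Of the 10 highest genes, RPS28, RPS29, RPL39, RPL37 and RPS26 encode cytosolic ribosomal proteins and ATP5F1E and NDUFA4 respiratory chain proteins. ATOX1, a copper chaperone, and PDF, a mitochondrial peptide deformylase, completed the group at 4.60 and 4.55, although ATOX1 was at 1.77 on the canonical scale. Counted positions covered 17.4% to 48.4% of the coding sequence in RPS28, ATP5F1E, NDUFA4, RPL39, RPL37 and RPS26. The share was 78.7% in PDF, 101% in ATOX1 and 112% in RPS29. All-exon values of the group were lower except for PDF. They were 2.89 for H3-3A, 1.52 for RPS28, 0.74 for ATP5F1E, 0.53 for RPL37 and 6.23 for PDF. For RPS29 the value depended on the length used. Its exon union of 9840 nt compares with a canonical transcript of 295 nt, and its efficiency was 5.27 with the former and 0.86 with the latter.

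BLTP2, a very large lipid transfer protein, was the lowest gene. Its coding RPKM was 2.31 and 1.49 against mRNA at 28.02 and 24.4, a log2 efficiency of -5.08 ± 0.24. ATP8B2, a phospholipid flippase, was at 1.74 and 1.45 against 18.2 and 16.7, or -4.74 ± 0.19. TULP4, whose 5′UTR of 1552 nt holds 20 AUGs, was at -4.32 ± 0.21. The other low extremes were GNAS, USF3, TTC3, TEX15, POLQ, NIN and PDZD8, from -4.47 to -3.80. GNAS, the stimulatory G protein alpha subunit, has overlapping transcripts with other reading frames, and its 3810 counted coding positions exceed the 1182 of its canonical transcript, so its value does not describe that transcript. On the all-exon scale GNAS was at -0.27 and not called, and the other 9 ran from -4.25 to -2.31. Same sign in all 4 pairings was a condition for naming these 20 extremes.

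Cytosolic ribosomal protein genes had the highest median of the gene lists on the deposited length, but not on the canonical or the all-exon scale. Of 87 listed genes 70 were tested, and 61 were called high and 3 low, with a median log2 efficiency of 2.02, where all genes have 34.0% high, 35.1% low and a median of 0. RPL39 stood at 7418 and 11207 coding RPKM against 147 and 152 for mRNA, and both footprint values far exceeded both mRNA values even after the median ratio was allowed for (log2 efficiency 4.67 ± 0.23, adjusted p = 5.82e-06). Only 33 of its 153 coding positions could be counted, and its value was 2.87 on the canonical and 0.75 on the all-exon scale. RPL11, a large-subunit protein that also binds MDM2, was at 297 and 318 against 339 and 324, and its efficiency was low at -1.40 ± 0.15 (adjusted p = 7.66e-05). RPL7L1, a relative of RPL7, and RPL13A were the other low genes, at -0.49 and -0.45. In the 8 other inputs the value of RPL13A was -0.01 and that of RPL7L1 -0.14, and neither was called. On the all-exon scale RPL11 was at 0.37, above the median gene, and RPL13A at -0.053 and not called.

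Ribosomal protein genes have many pseudogenes, and a median of 25.3% of their coding positions could be counted. Their exon unions were a median of 2.91 times the canonical transcript. On the canonical scale their median was 0.92, with 46 genes high and 8 low, and on the all-exon scale 0.39. How reads shared with pseudogenes were assigned in RNA-seq was not tested. The positions and lengths used moved the class median by more than 1 log2 unit without changing its sign. On the canonical scale 6 lists had a higher median, among them histones (1.30) and OXPHOS genes (1.22), and on the all-exon scale 18 did.

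A TOP start was present in 51 of the 70 ribosomal protein genes and in 401 (5.97%) of all genes tested. In RefSeq, 56.3% of 71 ribosomal protein entries and 4.07% of all 35116 entries start this way. The 51 genes with the tract had a median efficiency of 2.08 and the 19 without it 1.73, and on the canonical scale the order was reversed, at 0.86 and 1.04. Among the 350 genes with a TOP start outside this family, the median was 0.21, with 41.1% high and 32.0% low. The 6311 genes without a TOP start had a median of -0.03.

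TOP-type genes for elongation factors and RNA-binding proteins spread widely. Of 15 tested, 8 were high and 1 low, with a median of 0.43, but 6 were high and 6 low on the canonical scale (median 0.25), and the all-exon median was 0.0027. EEF1A1, which brings aminoacyl-tRNA to the ribosome, was at 7511 and 4960.3 coding RPKM against 229 and 340.0 (log2 efficiency 3.17 ± 0.28), but its all-exon value was 0.0027 and not called. EEF2, the translocation factor, was at 1808 and 1336 against 670.2 and 698, or -0.09 ± 0.19, and was not called (all-exon 1.03, high). VIM, the major intermediate filament of these cells, was high at 2.40 although its 5′UTR holds 2 AUGs. Its canonical transcript has no tract under the definition above, which 13 of the 15 tested genes met. EIF4B, which stimulates the helicase eIF4A, was low at -0.97 ± 0.16. For EEF1A1 only 12.4% of the coding positions were counted, and for EEF2 100.1%.

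**Figure D2:**
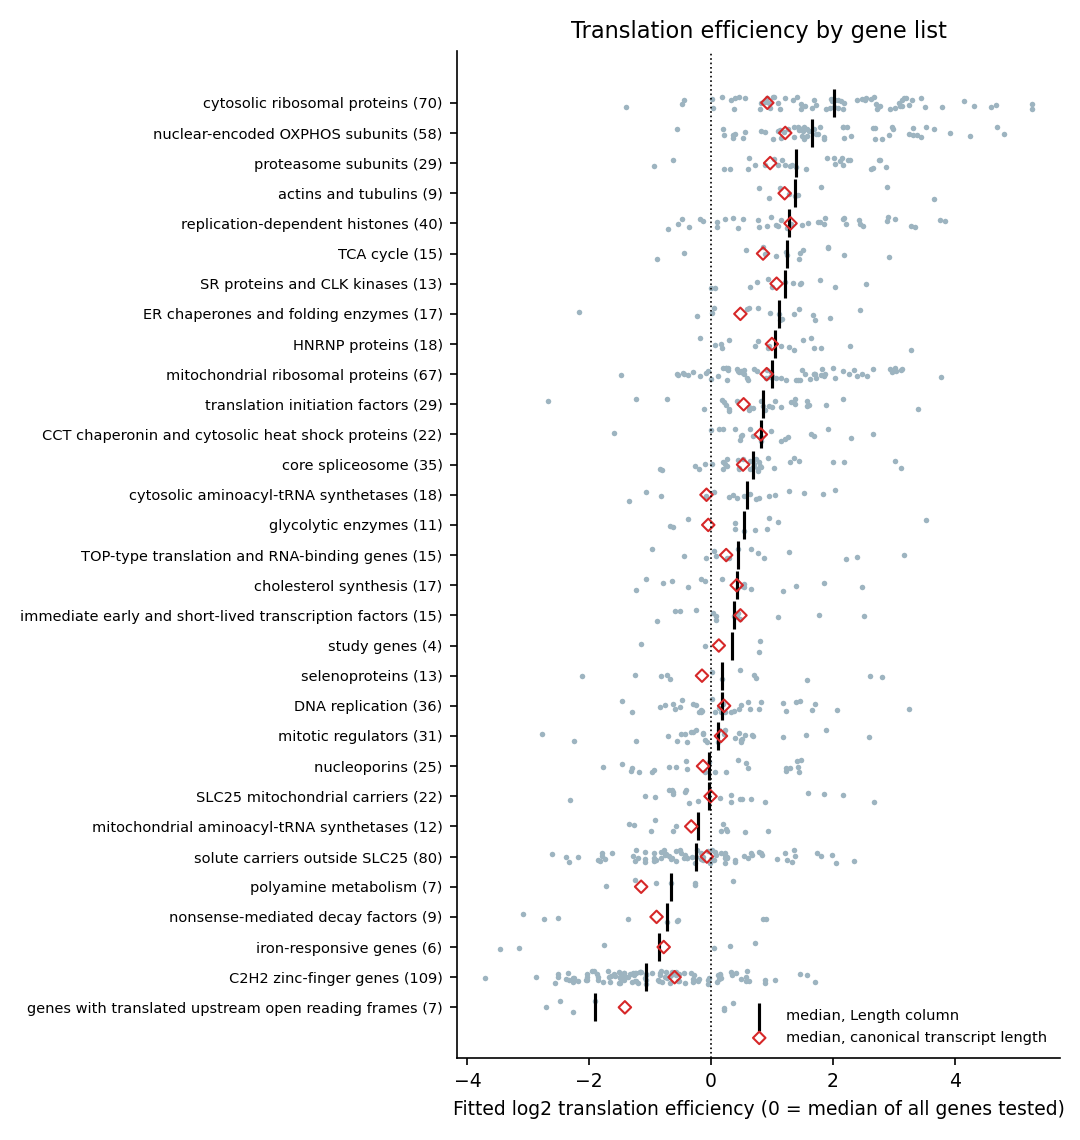
Fitted log2 translation efficiency (horizontal axis) of each tested gene (grey points) in 31 gene lists, with the number tested in parentheses, the list median on the deposited length (black bar) and on the canonical length (red diamond). Ribosomal protein genes have the highest median at 2.02 and genes with translated upstream reading frames the lowest at -1.91.

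Initiation factors were mostly high. Of 29 tested, 20 were high and 3 low, with a median of 0.85. MCTS1, which recycles the small subunit and aids reinitiation, was at 207 and 304 coding RPKM against 10.3 and 9.76 (log2 efficiency 3.39 ± 0.21, all-exon 0.58). EIF4G1, the scaffold of the cap-binding complex, and its relative EIF4G2 were low at -2.68 ± 0.18 and -1.23 ± 0.16. Counted positions covered 6.61% of the coding sequence of EIF4G1 and 80.01% of that of EIF4G2, and the all-exon value of EIF4G1 was above the median at 0.87.

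Cytosolic aminoacyl-tRNA synthetases had 11 of 18 genes high and 3 low at a median of 0.58, but the median was -0.08 with 7 high and 6 low on the canonical scale. AARS1, for alanine, was highest at 2.04, and TARS1, for threonine, lowest at -1.35 (all-exon 0.46). Their mitochondrial counterparts had 1 of 12 genes high and 5 low, with a median of -0.21, and IARS2, for isoleucine, was lowest at -1.35 ± 0.15. The call of IARS2 was lost on the all-exon scale (-0.0061), where the list median was 0.085. The difference between the 2 groups of synthetases was not tested.

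Nuclear genes for the respiratory chain and ATP synthase (OXPHOS) were almost uniformly high. Of 70 listed genes 58 were tested, and 53 were high and 1 low, with a median of 1.65 (canonical 1.22 with 46 high and 4 low, all-exon 1.45). Their proteins are short, with a median of 136.5 residues. Of all genes of 101 to 200 residues 74.3% were high, with a median of 1.22. NDUFA4, a cytochrome c oxidase subunit, was at 1860.2 and 2336 coding RPKM against 34.4 and 32.1, and the log2 efficiency was 4.69 ± 0.18 (canonical 4.57, all-exon 1.38). UQCRQ, of complex III, was chosen after its value was seen because it was the highest gene on the canonical scale with 80% to 120% of its coding positions counted. It was at 1603 and 1247 against 45.5 and 46.6, or 3.67 ± 0.18. UQCRH, the hinge protein of the same complex, was the 1 low gene at 176 and 228 against 117 and 126, or -0.55 ± 0.17. In the 8 other inputs UQCRH was at -0.13 and not called, and its all-exon value was 0.14. ATP5F1B, the catalytic beta subunit of ATP synthase, was not called, at 916 and 927 against 343 and 316 (0.20 ± 0.14), but was high on the canonical (0.49) and all-exon (1.40) scales.

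Mitochondrial ribosomal protein genes were high in 46 of 67 cases and low in 4, with a median of 1.01 (canonical 0.91). MRPL52, MRPL13 and MRPL55 were highest at 3.78, 3.14 and 3.12, and MRPL37 was lowest at -1.48 ± 0.15, a call that was lost on the all-exon scale (-0.30). Tricarboxylic acid cycle genes were high in 13 of 15 cases, with a median of 1.25 (canonical 0.85 with 9 high and 0 low). SDHC, a membrane anchor of succinate dehydrogenase, was at 2.91, and MDH2, malate dehydrogenase, at 633 and 559 coding RPKM against 86.6 and 84.5, or 1.51 ± 0.15. OGDH and SUCLG2 were low at -0.44 and -0.89, but neither was called on the canonical scale, and on the all-exon scale OGDH was at 0.70 and SUCLG2 at -0.47 and not called. SUCLG2 was at -0.26 in the 8 other inputs and not called, and it lost its call without mito replicate 1 (-0.56) and without wild-type replicate 2 (-0.55). OGDH lost its call without mito replicate 2 (-0.31), without wild-type replicate 1 (-0.46) and without wild-type replicate 2 (-0.42). The SLC25 carriers of the inner membrane had 7 of 22 genes high and 7 low, 31.8% each and near the 34.0% and 35.1% of all genes. The adenine nucleotide carriers SLC25A6 and SLC25A4 and the phosphate carrier SLC25A3 were at 2.68, 2.17 and 1.86, and SLC25A23, a calcium-regulated ATP-Mg carrier, at -2.31.

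The 13 protein genes of the mitochondrial genome could not be given an efficiency. All were listed with 0 reads in both wild-type inputs, whereas 5 of them had at least 64 footprints in both mito inputs. MT-CYB, for example, had 573 and 1369.5 coding footprints. A value of 0 reads for genes that every cell uses is a property of these tables and was not read as absence of mRNA.

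Proteasome genes were high in 25 of 29 cases and low in 2, with a median of 1.40 (canonical 0.97). PSMC1, an ATPase of the regulatory particle, was at 2.87 ± 0.19 (all-exon 0.56) and PSMA5, a ring subunit, at 2.75 ± 0.15. PSMC3 and PSMD2 were low at -0.93 ± 0.14 and -0.62 ± 0.16, but at 1.17 and 0.42 on the all-exon scale.

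Chaperones were mostly high, but HSP90AA1 and HSP90B1, 2 Hsp90 genes, were low. Of 22 genes for the CCT chaperonin, prefoldin and cytosolic heat shock proteins, 17 were high and 1 low, with a median of 0.82 on both scales. HSPA8, the constitutive Hsp70, was at 3241 and 4573 coding RPKM against 406 and 441, or 1.92 ± 0.20, and its value of 1.34 in the 8 other inputs was not called. HSP90AA1 was at 411 and 461 against 552 and 526, or -1.59 ± 0.16, and its footprint values lay below its mRNA values in every library. Among 17 ER chaperones 13 were high and 1 low, with a median of 1.11 (canonical 0.48). PPIB, a prolyl isomerase, was at 2.44 and HSPA5, the ER Hsp70, at 1.71, whereas HSP90B1, the ER Hsp90, was at -2.17 ± 0.28. Counted positions covered 20.5% of HSP90AA1 and 13.99% of HSP90B1, whose all-exon values were -0.73 and 0.09.

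Actins and tubulins were high in 9 of 9 cases, with a median of 1.38 (canonical 1.21). ACTB was at 4123 and 3732 coding RPKM against 643 and 596 (1.38 ± 0.15), a call lost on the all-exon scale (0.044), and TUBB2A, a beta tubulin, was highest at 3.66 ± 0.22. The all-exon median was 0.60. These genes share long identical stretches with each other, and a median of 14.3% of their coding positions could be counted. Glycolytic enzymes had a median of 0.54 with 6 of 11 high, but -0.05 with 2 high and 3 low on the canonical scale. PGAM1, phosphoglycerate mutase, was high on both scales at 3.53 and 3.68. GAPDH was at 3744 and 3379.7 against 754 and 784, or 0.92 ± 0.15, and was not called in the 8 other inputs (0.53).

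Splicing factors were more often high than low. Among 13 SR proteins and CLK kinases 11 were high and 0 low (median 1.21, but 8 high and 2 low on the canonical scale), among 18 HNRNP proteins 13 and 0 (median 1.05), and among 35 core spliceosome genes 23 and 2 (median 0.69). SRSF3, the smallest SR protein, was at 1503 and 1235 coding RPKM against 88.7 and 103, or 2.55 ± 0.17, but its all-exon value was -0.13. HNRNPA2B1 was at 3.28 ± 0.20, and SNRPE and SNRPD1, of the Sm ring, at 3.11 and 3.02, of which SNRPD1 was not called on the all-exon scale (0.25). The 2 kinases CLK1 and CLK2 were not called, at 0.01 and 0.07, but CLK1 was low on the canonical scale (-0.83). PRPF8, the large central protein of the spliceosome, was low at -0.83 ± 0.15 (all-exon 0.33).

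Replication-dependent histone genes, whose mRNAs end in a stem-loop instead of a poly(A) tail, were tested in 40 of 67 cases, and 28 were high and 2 low, with a median of 1.28 (canonical 1.30). The labels name polyA RNA and the methods rRNA depletion for RNA-seq, and since these mRNAs lack the tail, their mRNA level and efficiency depend on which of the 2 applies, which was not tested. The 3 lowest were the linker histones H1-3 and H1-2 at -0.71 and -0.54 and the core histone H2BC17 at -0.48, the last of which was not called, and the all-exon values of H1-3 and H1-2 were 0.81 and 0.98. On the canonical scale H1-3 was not called (-0.07). Over the 4 pairings of libraries the median ran from 0.95 to 1.62, a wider range than for the ribosomal protein genes (1.97 to 2.12). DNA replication genes (14 of 36 high, 8 low) and mitotic regulators (11 of 31 high, 7 low) had medians of 0.18 and 0.11. Their high shares of 38.9% and 35.5% were near the 34.0% of all genes. Their low shares were 22.2% and 22.6%, against 35.1% of all genes. RPA3, the smallest subunit of replication protein A, was at 3.24 ± 0.16 and RFC1, the largest of the clamp loader, at -1.29 ± 0.18, the latter not called on the all-exon scale (-0.22). MAD2L1, a checkpoint protein of 205 residues, was at 2.59 ± 0.16, with an all-exon value of -0.19, and the kinetochore proteins CENPE and CENPF, of 2701 and 3114 residues, at -2.77 ± 0.19 and -2.25 ± 0.15.

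Zinc-finger transcription factor genes formed the largest class with low efficiency. Of 462 listed C2H2 genes 109 had enough footprints, and 72 were low and 8 high, with a median of -1.07 (canonical -0.60, all-exon -0.57). ZFP62 was lowest at 3.60 and 3.44 coding RPKM against 19.3 and 18.8, or -3.72 ± 0.18, and ZNF236 and ZNF609 followed at -2.87 and -2.56. ZNF580, a short member of 172 residues, was highest at 1.71 ± 0.30. An upstream AUG was present in 55 of the 109. The members that missed the minimum are not described by these counts.

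Factors of nonsense-mediated decay, which degrades mRNAs with premature stop codons, were low in 7 of 9 cases and high in 2. SMG5 was at 9.21 and 7.76 coding RPKM against 35.8 and 23.4 (-3.09 ± 0.24) and SMG1 at 5.61 and 6.17 against 13.96 and 13.5 (-2.51 ± 0.15). For both genes, each footprint library lay below each RNA-seq library. The list median was -0.72, and -0.20 on the all-exon scale. UPF1, the central helicase, and SMG9 were high at 0.85 ± 0.18 and 0.90 ± 0.17.

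Genes known for translated upstream open reading frames were listed 15 times, and 7 had enough coding footprints. UCP2, a mitochondrial uncoupling protein, had coding RPKM of 7.78 and 6.71 against mRNA at 19.5 and 19.2, a log2 efficiency of -2.71 ± 0.20 (adjusted p = 1.70e-05). On its 5′UTR it had 284 and 345 footprints, which made the leader 4.88 and 6.28 times as dense as the coding sequence. PPP1R15B, a subunit of the phosphatase that reverses eIF2α phosphorylation, was at 19.4 and 17.7 against 44.1 and 40.1 (-2.47 ± 0.15), with leader to coding ratios of 3.44 and 2.71. In both genes the leader was denser than the coding sequence in each library. On the all-exon scale, which adds the leader footprints, UCP2 was at -0.18 and no longer called, and PPP1R15B was at -1.27. MIEF1, a receptor for mitochondrial fission whose upstream frame encodes a microprotein, was at -2.26 ± 0.18 with ratios of 0.753 and 0.937. MDM2, the p53 ubiquitin ligase, was at -1.91 ± 0.17 with ratios of 1.04 and 0.509, on either side of 1. CEBPG, EIF5 and AMD1 were not called, at 0.21, 0.22 and 0.35. The leader of AMD1, with an upstream frame of 6 codons that is known to respond to polyamines, had 526 and 389.6 footprints and ratios of 1.17 and 0.857, so on this scale a dense leader was also found without a low call. AMD1 was low on the canonical (-0.57) and all-exon (-0.67) scales, and CEBPG on the all-exon scale (-1.05).

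**Figure D3:**
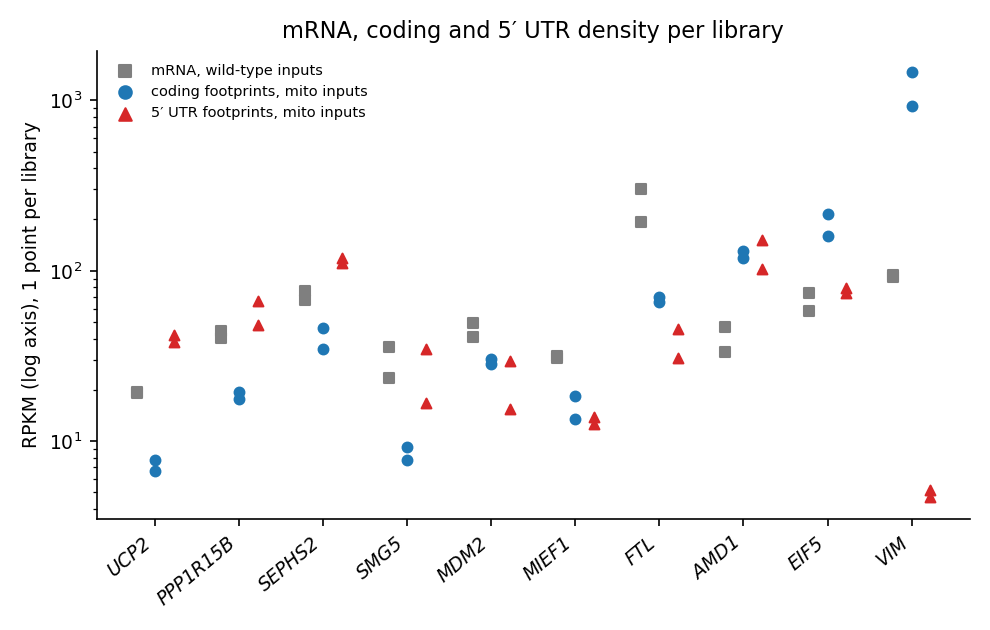
RPKM on a log axis for mRNA (grey squares), coding footprints (blue circles) and 5′UTR footprints (red triangles), 1 point per library, in 10 genes. UCP2, PPP1R15B, SEPHS2 and SMG5 have denser leaders than coding sequences in both libraries, and VIM has a nearly empty leader.

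ATF4, the transcription factor of the integrated stress response and the best known case of upstream control, fell short of the minimum. It had 23.99 and 25.5 coding footprints over the 118 positions that could be counted, where its 5′UTR had 1852 and 2381 footprints over 1157 positions and its mRNA 24109 and 27376 reads. SLC35A4, whose upstream frame encodes a microprotein, had 9 and 10 coding footprints over 918 positions with 3926 and 4782 RNA-seq reads. DDIT3, PPP1R15A and ATF5 of the same list also fell below 64 footprints in at least 1 library, DDIT3 with 10 and 4.88, PPP1R15A with 15 and 8 and ATF5 with 63.6 and 29.6. The lowest genes of this class are therefore outside the 6714.

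Iron-responsive genes were tested in 6 of 10 cases. FTL, the ferritin light chain, had coding RPKM of 70.5 and 65.4 against mRNA at 304 and 193, and both footprint values lay below both mRNA values (-3.15 ± 0.25, adjusted p = 2.29e-05). EPAS1, the hypoxia factor HIF-2α, whose 5′UTR holds the same loop, was at 3.16 and 3.14 against 5.18 and 3.59 (-1.76 ± 0.25). CDC42BPA, a kinase with 15 upstream AUGs, was at -3.47 ± 0.17. TFRC, the transferrin receptor, whose elements lie in the 3′UTR, and ACO1 were not called at 0.05 and 0.31. The heavy chain FTH1 was listed at 0 footprints over 150 countable positions with 13119 and 14894 RNA-seq reads, and no efficiency is given for it. The letters CNNNNNCAGTG, searched on the transcript strand of the 5′UTR, occur in 339 of 6712 genes (5.05%). Their median efficiency was -0.40, with 47.2% low, against 35.1% of all genes. Of all 1463 genes with a 5′UTR of 201 to 400 nt, 50.6% were low, a share that was not split by these letters. Leader length was not matched, so the count is not read as an effect of the element.

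Polyamine genes were low in 4 of 7 cases and high in 0, with a median of -0.65 (canonical -1.15). SMS, spermine synthase, was lowest at -1.72 ± 0.19, but at -0.20 and not called on the all-exon scale. AZIN1, the antizyme inhibitor, was at -1.25 ± 0.14 with leader to coding ratios of 1.23 and 0.842, and ODC1, ornithine decarboxylase, at -0.90 ± 0.14 (all-exon 0.17). OAZ1 and OAZ2, the antizymes, are read through a frameshift, and OAZ1 was low at -0.65 ± 0.16, a call that was lost without wild-type replicate 2 (-0.53).

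Selenoproteins, which read a UGA codon as selenocysteine, were mixed. Of 13 tested, 6 were high (46.2%) and 4 low (30.8%), against 34.0% and 35.1% of all genes. SEPHS2, which makes the selenium donor, was at 46.2 and 34.6 coding RPKM against 75.9 and 67.1 (-2.11 ± 0.18), and its 5′UTR of 147 nt had 189.7 and 194 footprints, a density 2.55 and 3.20 times that of the coding sequence. SELENOK, a short ER protein, was highest at 2.81 ± 0.17.

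Among short-lived transcription factors, 3 of 15 were high (20%) and 1 low (6.67%), with a median of 0.38. The high genes were ID1, ID2 and ID3, short inhibitors of DNA binding, at 1.11, 1.77 and 2.51. The call of ID1 was lost without mito replicate 1 (0.86), and that of ID2 on the all-exon scale (0.66). MYC and JUN were not called, at 0.03 ± 0.23 and 0.42 ± 0.21. Cholesterol genes (8 of 17 high, 4 low), nucleoporins (10 of 25 high, 10 low) and solute carriers outside SLC25 (17 of 80 high, 31 low) had medians of 0.42, -0.03 and -0.24. High shares of these 3 lists were 47.1%, 40% and 21.25%, against 34.0% of all genes. Low shares were 23.5%, 40% and 38.75%, against 35.1% of all genes. SREBF2, a regulator of cholesterol genes, was low at -1.23 ± 0.16. RANBP2, the largest nucleoporin, was low at -1.78 ± 0.17.

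The genes that the study engineered or deleted were described last among the lists. RPL29, which carries the Avi tag, was at 571 and 795 coding RPKM against 155 and 166, or 0.80 ± 0.18 (canonical 0.03, all-exon -0.27). AKAP1, an outer membrane anchor for RNA-binding proteins, was low at 28.3 and 20.2 against 21.4 and 22.4, or -1.14 ± 0.19. It was not called on the all-exon scale (-0.37) or in the 8 other inputs (-0.75), whose RNA-seq includes AKAP1 null cells. LARP4, a poly(A)-binding La-related protein, was at 57.7 and 70.8 against 27.7 and 28.5, or -0.09 ± 0.16, and was not called. SEC61B was high at 0.78 ± 0.16, from 55 countable positions, and not called on the canonical (0.33) or all-exon (0.32) scale.

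Among the genes that met the minimum, protein length was the feature that ordered efficiency most. The median efficiency was 1.49 for the 135 genes of up to 100 residues, 1.22 for 743 genes of 101 to 200, 0.49 for 1843 of 201 to 400, -0.19 for 2377 of 401 to 800, -0.91 for 1219 of 801 to 1600 and -1.70 for 395 above 1600 residues. The share called low rose from 2.96% in the shortest to 88.4% in the longest group, and the share called high fell from 84.4% to 3.04%. Canonical medians ran from 1.23 to -1.47 over the same groups, and those in the 8 other inputs from 1.76 to -1.77. Over the 6712 genes Spearman's rho between efficiency and protein length was -0.61. Length is part of both denominators. The minimum is set on footprint counts, so a short coding sequence needs a higher footprint density to be tested than a long one. A short gene of low efficiency can therefore be left out where a long gene of the same density is kept. The parts of the denominators and of the minimum in this order were not tested. The gene lists differ in length too. Median lengths were 136.5 residues for OXPHOS, 151 for ribosomal protein and 1118 for nonsense-mediated decay genes. Of all genes of 801 to 1600 residues 67.3% were low. Canonical medians were 0.92 for ribosomal protein and 1.22 for OXPHOS genes, against 1.00 for all genes of 101 to 200 residues. How far the lists differ from genes of like length was not tested.

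Upstream AUGs went with lower efficiency at every length. Genes with no AUG in the 5′UTR (4391) had a median of 0.36, those with 1 (1233) -0.53, with 2 (506) -0.97, with 3 (248) -1.19, with 4 (116) -1.43 and with 5 or more (218) -1.72. Within each of the 6 length groups the median with an upstream AUG was lower than without, by the least in the group of up to 100 residues (1.21 in 14 genes against 1.54 in 121). Between 401 and 800 residues the medians were -0.71 in 853 genes and 0.05 in 1524. The order was the same on the canonical scale, where genes without and with upstream AUGs had medians of 0.31 and -0.71.

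**Figure D4:**
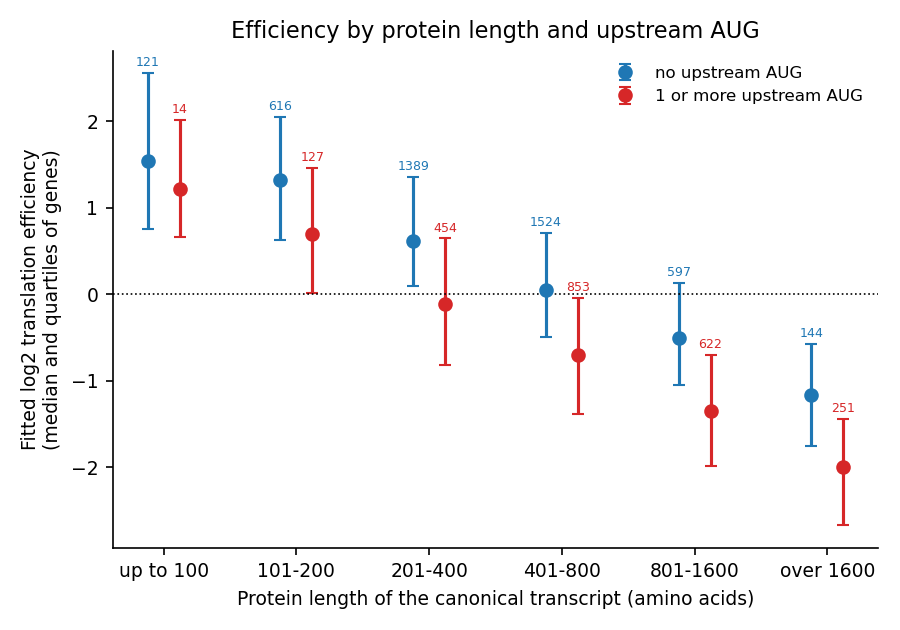
Median and quartiles of fitted log2 translation efficiency (vertical axis) by protein length in amino acids (horizontal axis), for genes without (blue) and with (red) an upstream AUG, with the number of genes above each bar. Medians fall from 1.54 to -1.17 without and from 1.21 to -2.00 with an upstream AUG.

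Longer leaders went with lower efficiency as well, from a median of 0.49 for 5′UTRs of up to 50 nt to -1.10 above 400 nt. The base 3 positions before the AUG, which is usually a purine in efficient start sites, ordered the genes weakly. Its median efficiency was 0.01 with A, 0.06 with G, -0.24 with C and -0.56 with T. By GC content at the wobble position of codons, medians ran from -0.23 in the lowest of 5 equal groups to 0.24 in the highest. By enrichment on ER-labelled ribosomes, relative to the median gene, the 1286 genes at least 1 log2 unit up had a median of 0.07, the 5320 within 1 log2 unit -0.03 and the 54 at least 1 down -0.53. Spearman's rho with efficiency was 0.24 for this enrichment over 6660 genes and 0.13 for GC content at the wobble position over 6712. The 672 genes of lowest efficiency had a median protein length of 1139 residues, a median 5′UTR of 259 nt and upstream AUGs in 82.4%. For the 671 genes of highest efficiency these values were 205 residues, 72 nt and 9.24%. These sets also differed in what could be measured. Median countable shares of the coding sequence were 97.2% in the lowest set, 60.05% in the highest and 88.3% in all genes. Median ratios of exon union to canonical transcript length were 1.196, 2.27 and 1.40. The part of these differences in the contrast was not tested.

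Footprint density on the 5′UTR relative to the coding sequence was taken from the 4 ER and cytosol inputs, which do not enter the efficiency. Genes with at least 100 countable leader positions were used. Where the leader was at least as dense as the coding sequence (794 genes), the median efficiency was -1.45, with 80.6% low and 3.78% high. Between 0.25 and 1 times (1998 genes) it was -0.44, between 0.05 and 0.25 times (1566 genes) 0.28, and below 0.05 times (994 genes) 0.85, with 62.3% high and 11.2% low. In the mito inputs themselves, 471 of 5354 genes had leaders at least as dense as the coding sequence in both libraries, and 401 of these were low and 12 high. Coding density is the denominator of this ratio in the mito inputs and in the ER and cytosol inputs alike. A gene with a low coding density in both sets has a raised ratio by construction, so all of these counts are a description only.

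**Figure D5:**
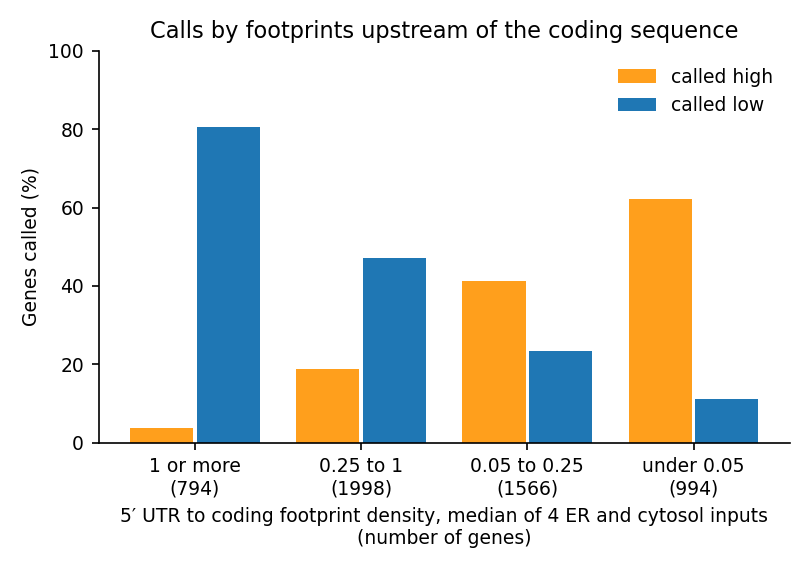
Percent of genes called high (orange) and low (blue) by the ratio of 5′UTR to coding footprint density in the 4 ER and cytosol inputs, with the number of genes in parentheses. From the densest to the emptiest leaders, low calls fall from 80.6% to 11.2% and high calls rise from 3.78% to 62.3%. Coding density is the denominator of the ratio, so the order is a description only.

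The minimum of 64 removed many expressed genes. Of 10684 protein-coding genes with at least 64 RNA-seq reads in both wild-type inputs, 3972 had fewer than 64 coding footprints in a mito input. Of these, 76 had no countable coding position and 363 fewer than 100. PLS3, TUBA1B, H4C11, RPL36AL, RPS3, CCT3 and PRELID1, with ATF4 and FTH1, were among the 10 genes with the most RNA-seq reads per kilobase in this set, and 14.5% or less of the coding sequence could be counted in each of these except FTH1. PLS3, TUBA1B, RPS3 and CCT3 were listed at 0 coding footprints, with ample mRNA, which was not read as absence of translation. Just inside the minimum, 475 genes with 64 to 80 counts in their lowest library had a median efficiency of -0.29, and just outside it, 572 genes with 48 to 64 had -0.36.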

How the data were processed

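For ribosome profiling, TopHat alignments unique in the genome and 27 to 36 nt long were assigned by the authors to Ensembl 104 genes with plastid, 13 nt being ignored at each end. The authors deposited estimated counts and coding RPKM. RNA-seq read pairs were aligned with STAR, and the authors deposited each gene's read count and exon length from featureCounts. The deposited score named FPKM was 10 times what counts and length give, and it was not used for efficiency. In each wild-type file 3 to 5 lines of 1 broken entry were left out.

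Estimated counts were rounded and tested, footprints against RNA-seq, with edgeR 4.0.16 (glmQLFit and glmQLFTest) in R 4.3.3, with library size and gene length as offsets and 0 at the median of all genes. SE is the log2 efficiency divided by the root of F. On simulated data for this comparison (6714 genes, 200 changed), log2 changes of 0.5, 1 and 2 were found for 0%, 80.5% and 100% of the changed genes, with 0, 12 and 4 other genes called. Far fewer genes changed there than were called in the data. The adjustment of p was therefore stricter in the simulation, and these shares do not carry over to the calls above. DESeq2 1.42.0 was an alternative. Tables used Python 3.11.15 and pandas 2.3.3. Transcripts, protein lengths and sequences come from GENCODE 44 on GRCh38, and TOP shares also from RefSeq promoters.

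Genes were named if they were among the 10 highest or 10 lowest called efficiencies with 1 sign in all 4 pairings, the 3 highest or 3 lowest of a list, any member of a list of up to 20 genes or of the lists of upstream reading frames and study genes, or the 10 genes with the most RNA-seq counts per kilobase below the minimum. Some genes that meet this rule are not reported here. Of list members below the minimum, 6 genes known for upstream reading frames or iron responses are also named. The members and lists were chosen with earlier results of these data known. The alternatives with canonical transcript length were chosen after seeing the data. No replicate pairs footprints with RNA-seq: the correlation over genes of the replicate differences of the data types was 0.07.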

Additional observations from a re-analysis of the deposited data

How the results depend on the processing

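The numbers of high and low genes stayed within 1.5 times of 2283 and 2356 under most of the 16 alternatives. Exceptions were a minimum of 200 counts (1454 high, 1481 low), genes with at least 80% of the coding sequence countable (1319 and 1326) and the latter (80% to 120%) with the canonical length (1159 and 1228), each of which tests fewer genes. DESeq2 called 2276 and 2344 genes, and TMM on length-corrected counts 2195 and 2467. Leaving out 1 library gave 1964 to 2396 high and 2005 to 2351 low, where the lone library of an arm is assumed to vary like the rest. The replicate numbers pair nothing here, and with the replicate block 2402 genes were high and 2421 low. The SD over genes of 1.32 was 1.38 with a minimum of 10 counts, 1.26 with a minimum of 200, 1.29 with the exon length of the ribosome profiling tables, 1.08 on the all-exon scale, 1.34 with 6 against 6 inputs, 1.36 with the 8 other inputs, 1.26 with at least 80% countable, 1.19 with the canonical length, 1.14 with both of the last, and 1.33 in each fit without 1 library. Of 31 list medians, 22 were above 0 and 19 to 26 under the alternatives. Medians that changed sign with both values larger than their SD over the 4 pairings were those of mitochondrial synthetases (0.085) and of the study genes (-0.28) on the all-exon scale, and of mitotic regulators with a minimum of 200 (-0.31). With values nearer 0 counted, 12 of 31 lists changed sign under some alternative, among them SLC25 carriers (0.40) and nucleoporins (0.47) on the all-exon scale, cytosolic synthetases (-0.08), glycolytic enzymes (-0.05) and selenoproteins (-0.15) with the canonical length, and DNA replication (-0.11) and cholesterol genes (-0.07) with a minimum of 200.

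On the all-exon scale the sign of 18 named genes reversed with a call on either scale, to 1.03 for EEF2, 0.87 for EIF4G1, 0.98 for H1-2, 0.81 for H1-3, 0.086 for HSP90B1, 0.17 for ODC1, 0.70 for OGDH, 0.33 for PRPF8, 1.17 for PSMC3, 0.42 for PSMD2, 0.37 for RPL11, 0.46 for TARS1 and 0.14 for UQCRH, and to -0.67 for AMD1, -1.05 for CEBPG, -0.19 for MAD2L1, -0.27 for RPL29 and -0.13 for SRSF3. With the canonical length AMD1 was at -0.57, CLK1 at -0.83 and H1-2 at 0.10, and with 80% to 120% countable as well H1-2 was at 0.26, H1-3 at 0.093 and OGDH at 0.050. The cause was not tested. Low calls lost without mito replicate 1 were those of RPL13A (-0.21), RPL7L1 (-0.31), UQCRH (-0.30), SUCLG2 (-0.56) and H1-2 (-0.34), and the high call of ID1 (0.86). Without mito replicate 2, OGDH (-0.31) and H1-2 (-0.68) were no longer called. Without wild-type replicate 1, RPL13A (-0.46), RPL7L1 (-0.57), OGDH (-0.46), PSMD2 (-0.56) and H1-3 (-0.59) were not called. Without wild-type replicate 2, RPL13A (-0.42), RPL7L1 (-0.40), UQCRH (-0.47), SUCLG2 (-0.55), OGDH (-0.42), OAZ1 (-0.53) and H1-2 (-0.25) were not called, whereas AMD1 (0.64) and JUN (0.74) were. H2BC17 was called without mito replicate 2 (-0.82) and without wild-type replicate 1 (-0.61).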
